A study of Mus musculus with 8 samples.

Results

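Chromatin immunoprecipitation with sequencing (ChIP-seq) of the remodelers Chd7 and Chd8 in mouse oligodendrocyte lineage cells gave a set of Chd7 peaks that touched no Chd8 peak. A peak was a member if it shared not even 1 bp with a peak of the Chd8 library or of either mock library. Of the 5282 peaks of Chd7 replicate 1, 1105 were members, and of the 6292 peaks of Chd7 replicate 2, 2356 were members. The 8 libraries held 409768 peaks in all. The members were chosen by the called peaks of the Chd7, Chd8 and mock libraries, so the lack of Chd8 is how the set was made and is not a result. The lists of the 2 Chd7 libraries were kept apart throughout.

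The cells carried the surface antigen O4, a marker of the oligodendrocyte lineage, and came by magnetic sorting from cortex and corpus callosum of wild-type mice, aged 7 days after birth. The labels call them oligodendrocyte precursor cells. The Chd7 ChIP had 2 libraries (replicates 1 and 2), the Chd8 ChIP 1 library (labelled replicate 3), the mock with rabbit IgG 2 libraries and the input 3 libraries. All groups share genotype, age and tissue, and no group had Chd7 or Chd8 removed, so antibody specificity cannot be read from these lists. Nothing says which animals or sorts gave the libraries.

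CHD7 and CHD8 belong to the same subfamily of ATP-dependent chromatin remodelers, which use ATP to slide or evict nucleosomes. CHD7 is known for binding enhancers and promoters of developmental genes, and its mutation causes CHARGE syndrome. CHD8 is known for binding promoters, and its mutation is linked to autism. In oligodendrocyte precursors both are known to act on survival and differentiation genes.

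Of the 1105 and 2356 members, 40 regions occurred in both Chd7 lists, and some of these lay on the promoters of protein-coding genes. The promoter windows of the 6 genes of highest mean fold among them are shown. They are windows, 1 a gene, at annotated starts where Chd7 without Chd8 was called in both libraries. Each runs from 250 bases before to 50 bases after an annotated start (RefSeq, GRCm38.p6), is written 5′ to 3′ on the gene's strand, and has in capitals the bases that lay under the member peaks of both libraries. Otub2, a deubiquitinase of the OTU family, is at chr12:103388432-103388731 (plus strand). Nav2, a cytoskeleton-associated protein of neurite growth, is at chr7:49245939-49246238 (plus strand). Nsmce3, a subunit of the SMC5/6 complex, is at chr7:64872991-64873290 (minus strand). Zdhhc20, a protein palmitoyltransferase, is at chr14:57890287-57890586 (minus strand). Pdk1, a kinase that inhibits pyruvate dehydrogenase, is at chr2:71872974-71873273 (plus strand). Ripk1, a kinase of tumour necrosis factor receptor signalling, is at chr13:34002624-34002923 (plus strand).
Otub2: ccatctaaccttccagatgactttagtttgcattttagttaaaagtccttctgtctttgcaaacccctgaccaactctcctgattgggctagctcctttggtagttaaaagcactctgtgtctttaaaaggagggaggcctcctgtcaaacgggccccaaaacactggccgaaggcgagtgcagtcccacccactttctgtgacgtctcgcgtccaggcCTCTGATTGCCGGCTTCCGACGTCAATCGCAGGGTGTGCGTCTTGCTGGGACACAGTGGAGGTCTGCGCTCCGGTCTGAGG
Nav2: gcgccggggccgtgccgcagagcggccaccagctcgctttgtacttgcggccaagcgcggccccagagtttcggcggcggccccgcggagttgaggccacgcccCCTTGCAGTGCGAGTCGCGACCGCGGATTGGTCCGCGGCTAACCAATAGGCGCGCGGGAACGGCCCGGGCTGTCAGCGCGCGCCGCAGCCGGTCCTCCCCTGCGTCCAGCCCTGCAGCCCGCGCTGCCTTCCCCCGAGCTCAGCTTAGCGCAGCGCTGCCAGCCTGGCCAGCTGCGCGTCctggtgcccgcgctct
Nsmce3: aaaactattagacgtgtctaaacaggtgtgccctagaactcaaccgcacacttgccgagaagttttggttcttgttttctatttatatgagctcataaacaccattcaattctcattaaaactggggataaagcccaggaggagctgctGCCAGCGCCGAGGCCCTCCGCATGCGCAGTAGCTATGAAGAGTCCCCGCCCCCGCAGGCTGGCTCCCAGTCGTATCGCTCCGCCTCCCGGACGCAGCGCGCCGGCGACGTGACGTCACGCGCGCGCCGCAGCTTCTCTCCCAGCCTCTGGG
Zdhhc20: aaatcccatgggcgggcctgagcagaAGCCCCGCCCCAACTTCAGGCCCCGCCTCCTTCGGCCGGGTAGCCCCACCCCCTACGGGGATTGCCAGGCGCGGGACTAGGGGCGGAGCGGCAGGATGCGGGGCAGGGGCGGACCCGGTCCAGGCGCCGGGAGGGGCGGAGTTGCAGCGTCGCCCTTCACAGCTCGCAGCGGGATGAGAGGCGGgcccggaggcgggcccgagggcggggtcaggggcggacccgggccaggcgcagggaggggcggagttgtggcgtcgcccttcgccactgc
Pdk1: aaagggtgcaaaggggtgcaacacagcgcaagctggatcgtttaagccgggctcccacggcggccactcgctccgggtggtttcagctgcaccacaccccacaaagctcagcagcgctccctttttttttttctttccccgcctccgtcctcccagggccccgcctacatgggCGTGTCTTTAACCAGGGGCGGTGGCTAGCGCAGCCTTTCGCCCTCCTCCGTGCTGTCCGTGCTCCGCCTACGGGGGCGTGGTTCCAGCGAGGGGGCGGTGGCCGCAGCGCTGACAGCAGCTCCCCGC
Ripk1: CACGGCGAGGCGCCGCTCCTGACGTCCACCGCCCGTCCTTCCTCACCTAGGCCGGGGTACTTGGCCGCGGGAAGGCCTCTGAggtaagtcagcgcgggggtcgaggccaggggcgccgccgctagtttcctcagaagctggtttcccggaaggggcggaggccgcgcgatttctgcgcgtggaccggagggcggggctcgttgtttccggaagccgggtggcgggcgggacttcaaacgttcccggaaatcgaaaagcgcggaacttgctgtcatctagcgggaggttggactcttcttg

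The Zdhhc20 window had a GC content of 76.0% and the Otub2 window 53.7%, with Nav2 at 74.7%, Ripk1 at 67.0%, Pdk1 at 66.0% and Nsmce3 at 57.3%. The number of CpG dinucleotides ran between 13 in the Otub2 window and 42 in the Nav2 window. Zdhhc20, Pdk1, Nsmce3 and Ripk1 held the GC box GGGCGG, searched on both strands, and Nav2 and Otub2 did not. Pdk1 and Ripk1 had no input peak under the region, and their nearest Chd8 peaks lay 165489 bp and 34464 bp away. Nav2 lay 15954 bp from a Chd8 peak and under an input 3 peak. Otub2 directly adjoined a Chd8 peak, Nsmce3 lay 157 bp and Zdhhc20 261 bp from one, and each of these had an input peak under it.

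The first question was how these peaks compared in strength with the Chd7 peaks that do touch Chd8. The fold here is the height of a peak over the peak caller's local background, as the authors deposited it. In replicate 1 the members had a median fold of 4.42 (range 4.15 to 16.4, n = 1105), against 4.66 for the 4113 peaks with Chd8. In replicate 2 the members had a median fold of 3.27 (range 3.03 to 10.6, n = 2356), against 3.38 for the 3881 peaks with Chd8. Members were also narrower: the median width was 198 bp against 262 bp in replicate 1, and 179 bp against 380 bp in replicate 2. In replicate 1, 215 members (19.5%) stood at the lowest fold of the list, against 330 peaks with Chd8 (8.02%).

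The share of members fell with fold and with width. In replicate 1 members made up 31.5%, 26.2%, 15.4% and 11.6% of the peaks in 4 equal groups by fold, from the lowest to the highest, after removal of the peaks that touched a mock. The same shares were 45.4%, 45.0%, 34.5% and 26.2% in replicate 2. By width the shares went further apart: 30.7% of the narrowest of 4 equal groups and 8.66% of the widest were members in replicate 1, and 70.6% and 7.25% in replicate 2. A wider peak has more bases that can touch a Chd8 peak, and 1 shared base removes it from the set. The rule thus bears on both the smaller width of members and this fall, and its part was not tested. Peaks of 1 library are not replicates of a condition, so no test was run on these or any other shares here, and the 95% Clopper-Pearson intervals given below cover counting of peaks or genes only.

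The second question was whether the second Chd7 library had a peak at the same place. The rule did not use the other Chd7 library. It did, however, split the peaks by whether another ChIP library, that of Chd8, had a peak there. The part of that split in the difference in recurrence was not tested. Of the replicate 1 members, 56 of 1105 (5.07%, interval 3.85 to 6.53) overlapped any Chd7 peak of replicate 2, against 1347 of 4113 peaks with Chd8 (32.7%, interval 31.3 to 34.2). Of the replicate 2 members, 45 of 2356 (1.91%, interval 1.40 to 2.55) overlapped any Chd7 peak of replicate 1, against 1347 of 3881 peaks with Chd8 (34.7%, interval 33.2 to 36.2). The intervals of members and of peaks with Chd8 did not overlap in either library. Of the 56 replicate 1 members that recurred, 40 met a member, 14 met a replicate 2 peak with Chd8 and 2 met a replicate 2 peak that touched a mock.

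The difference in recurrence was present at every level of fold. Among the lowest of the 4 fold groups of replicate 1, 5.35% of members recurred against 27.5% of peaks with Chd8, and among the highest group 9.27% against 35.6%. In replicate 2 the same shares were 1.13% against 30.3% in the lowest group and 2.93% against 42.0% in the highest. By place, 12.4% of replicate 1 members at gene ends recurred, against 48.1% of peaks with Chd8 at gene ends, and in replicate 2 the shares were 3.05% against 31.3%.

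**Figure D1:**
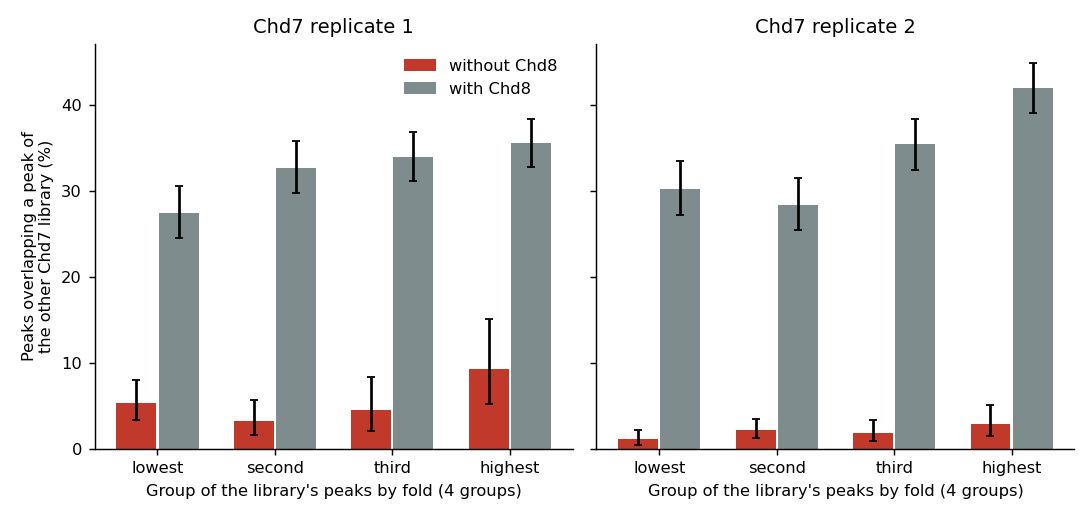
Share of Chd7 peaks that overlap a peak of the other Chd7 library (y axis, percent), in 4 equal groups by fold in the peak's own library (x axis), for replicate 1 on the left and replicate 2 on the right. Red bars are peaks without Chd8, grey bars peaks with Chd8, and error bars are 95% Clopper-Pearson intervals; in each group the red bar is the lower, at most 9.27%.

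Recurrence was also read by the input peaks. The inputs are sonicated chromatin without immunoprecipitation, so a peak there was called without an antibody. Members lay under a peak of any input in 15.8% of cases in replicate 1, against 45.0% of peaks with Chd8, and in 37.3% in replicate 2, against 77.3%. Of the replicate 1 members under an input peak, 34 of 175 (19.4%, interval 13.8 to 26.1) recurred, against 52.7% of peaks with Chd8 under an input peak. Of the 930 replicate 1 members under no input peak, 22 recurred (2.37%, interval 1.49 to 3.56), against 16.4% of peaks with Chd8 under no input peak. In replicate 2 the members under no input peak recurred in 20 of 1477 cases (1.35%, interval 0.829 to 2.08), against 38.7% of peaks with Chd8. Under an input peak, 25 of 879 replicate 2 members recurred (2.84%, interval 1.85 to 4.17), against 33.5% of peaks with Chd8. Members thus recurred more often under an input peak than under none in replicate 1, while in replicate 2 the 2 intervals overlapped and peaks with Chd8 had the lower share under an input peak. Under peaks of all 3 inputs, 12 of 36 replicate 1 members (33.3%, interval 18.6 to 51.0) recurred, against 75.9% of peaks with Chd8, and in replicate 2 10 of 143 members (6.99%, interval 3.40 to 12.5), against 40.5%. The part of the input signal in recurrence was not tested.

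Members lay at other places in genes than the peaks with Chd8. Each peak was put in 1 of 3 places by its midpoint: within 1 kb of either boundary of a protein-coding gene, called a gene end; elsewhere in a gene body; or outside genes. In replicate 1, 16.0% of members were at a gene end, against 41.9% of peaks with Chd8, while 49.8% were inside genes, against 34.7%, and 34.2% between genes, against 23.4%. In replicate 2, 20.8% of members were at a gene end, against 68.0%, while 41.0% were inside genes, against 21.7%, and 38.2% between genes, against 10.4%. The Chd8 library itself had 44.8% of its peaks at gene ends, and the 3 inputs had 3.95%, 3.31% and 10.9%. The gene-end share of members thus stood between that of the inputs and that of Chd8 in both libraries. The rule is not independent of place. With 44.8% of Chd8 peaks at gene ends, taking out the Chd7 peaks that touch Chd8 takes out gene-end peaks in particular. The difference in place is therefore in part set by the rule, and how large that part is was not tested.

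**Figure D2:**
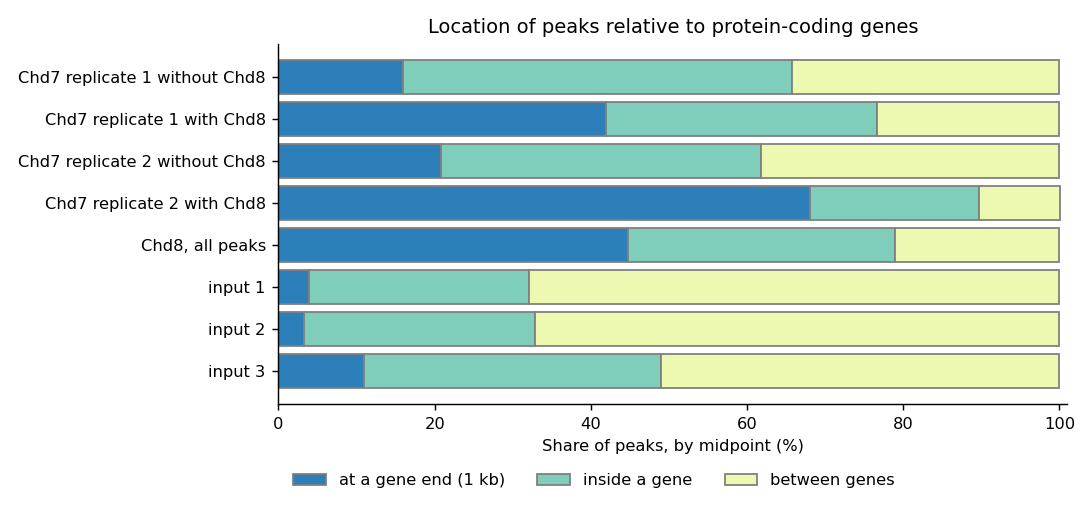
Share of peaks (x axis, percent) at gene ends, elsewhere inside genes or between genes, by peak midpoint, for Chd7 peaks without Chd8 and with Chd8 in each replicate, all Chd8 peaks and the 3 inputs. The gene-end part is 16.0% and 20.8% for Chd7 peaks without Chd8 and 41.9% and 68.0% for those with Chd8.

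Strand was known for the starts in the RefSeq promoter table, which allowed starts and far ends to be told apart for most members at gene ends. Of 177 such members in replicate 1, 110 (62.1%) were at a start only and 16 (9.04%) at the far end only, against 76.1% and 2.90% of the peaks with Chd8 at gene ends. Of 491 such members in replicate 2, 302 (61.5%) were at a start only and 44 (8.96%) at the far end only, against 77.8% and 1.18%. Starts were the more common end in members as in peaks with Chd8, and far ends took a larger share of members. No end could be assigned for 25.4% of these members in replicate 1, against 17.2% of these peaks with Chd8. In replicate 2 it was 25.9% against 17.4%. Such peaks stayed in the totals, which lowers the start share more in members than in peaks with Chd8.

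Many members were close to Chd8 without touching it. The median gap to the nearest Chd8 peak was 21381 bp in replicate 1 and 33016.5 bp in replicate 2. In replicate 1, 220 members (19.9%) lay within 1 kb of a Chd8 peak, and in replicate 2, 284 (12.1%). At the other extreme, 192 members of replicate 1 (17.4%) and 644 of replicate 2 (27.3%) had no Chd8 peak within 100 kb. The gene-end share was higher among members near Chd8, which held 88 of the 177 gene-end members of replicate 1 and 154 of the 491 of replicate 2 within 1 kb. Within 1 kb of Chd8, 40% of replicate 1 members (interval 33.5 to 46.8) were at a gene end, against 3.65% (interval 1.48 to 7.37) of those over 100 kb away. The same shares in replicate 2 were 54.2% (interval 48.2 to 60.1) and 8.54% (interval 6.50 to 10.97).

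The boundary of the set is a matter of a few bases for some peaks. The members nearest to Chd8 adjoined a Chd8 peak with a gap of 0 bp, and 90 members of replicate 1 and 76 of replicate 2 lay within 100 bp. On the other side, the smallest overlap that put a Chd7 peak among those with Chd8 was 1 bp in replicate 1 and 2 bp in replicate 2. Overlaps under 100 bp made up 6.88% and 6.11% of the peaks with Chd8.

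**Figure D3:**
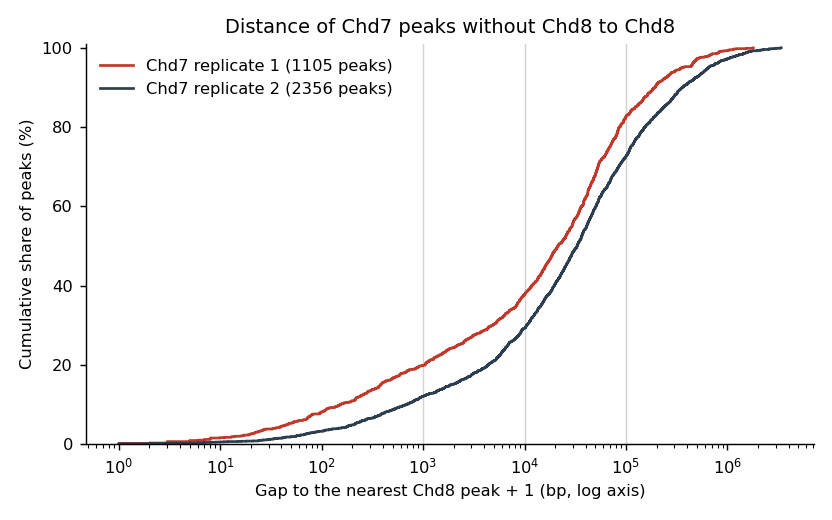
Cumulative share of Chd7 peaks without Chd8 (y axis, percent) by their gap to the nearest Chd8 peak (x axis, bp plus 1, log scale), for replicate 1 (red, 1105 peaks) and replicate 2 (dark blue, 2356 peaks). The curves pass 1 kb at 19.9% and 12.1%, and replicate 2 lies to the right, with medians of 33016.5 bp against 21381 bp.

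The 40 regions found without Chd8 in both libraries were 3.62% of the replicate 1 members (interval 2.60 to 4.90) and 1.70% of the replicate 2 members (interval 1.22 to 2.30). Of these, 17 lay under no input peak, 14 under a peak of 1 or 2 inputs and 9 under peaks of all 3. Their median width as merged spans was 318.5 bp, with 12 at gene ends, 13 elsewhere in genes and 15 between genes. The Otub2 and Nav2 regions were among the 13, since they lay over 1 kb from the boundaries of the gene. None of the 9 under all 3 inputs lay at a gene end, while 6 of the 17 under no input did.

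The 3 regions of highest mean fold lay under peaks of all 3 inputs. The first was at chr9:24542042-24542159, 14888 bp from Dpy19l2, with a fold of 11.3 in replicate 1 and 6.17 in replicate 2. The second lay at chr13:77438909-77439050 inside 2210408I21Rik, with 7.35 in replicate 1 and 6.71 in replicate 2. The third, at chr2:3050134-3050434 between genes, had 7.77 in replicate 1 and 3.42 in replicate 2. The strongest regions called in both libraries thus had peaks in every input. Another region under all 3 inputs lay 8878 bp from P4ha2, a subunit of collagen prolyl hydroxylase, with 5.96 and 3.60 in replicates 1 and 2.

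Under no input, the highest of the 40 was at chr3:127949073-127949363, at the lncRNA 9830132P13Rik, with a fold of 5.74 in replicate 1 and 4.14 in replicate 2. A region at chr6:56066671-56066913, which is 2950 bp from Pde1c, a cyclic nucleotide phosphodiesterase, had 6.43 in replicate 1 and 3.32 in replicate 2. Both were over 100 kb from any Chd8 peak. Tet1, an enzyme that oxidises methylcytosine in DNA, had a region inside the gene at chr10:62870831-62871174 with 4.67 in replicate 1 and 5.17 in replicate 2. The replicate 1 peak there touched an input 3 peak and the replicate 2 peak touched none, and the nearest Chd8 peak was 4875 bp away.

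At the promoters printed above, Otub2 had a fold of 5.28 in replicate 1 and 4.48 in replicate 2, Nav2 had 5.55 and 3.25, and Nsmce3 had 4.46 and 4.12. Zdhhc20 had 4.66 and 3.34, Pdk1 4.34 and 3.31, and Ripk1 4.33 and 3.25, in replicates 1 and 2. The tenth region by mean fold lay 11595 bp from Zfp978, a zinc finger gene, under peaks of 2 inputs, with 4.91 and 3.76. The other regions under no input were at or in Elmo1, Naaa, 1110002E22Rik, Atf7ip, Csmd1, Cpd, Lypla1, Mmaa and Mapre1, at the lncRNAs Gm31130 and Gm41481, and nearest to Slc38a11 and Zcchc13. The rest of the 40 were at or in Cldn34d, Hmcn2, Zfp978, 2410141K09Rik, Knstrn, Ccdc9, Inafm1, Vkorc1l1 and Pcbp3, at the lncRNAs Tincr and Gm45966, and nearest to Gm21149, Bbc3 and Zfp970.

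**Figure D4:**
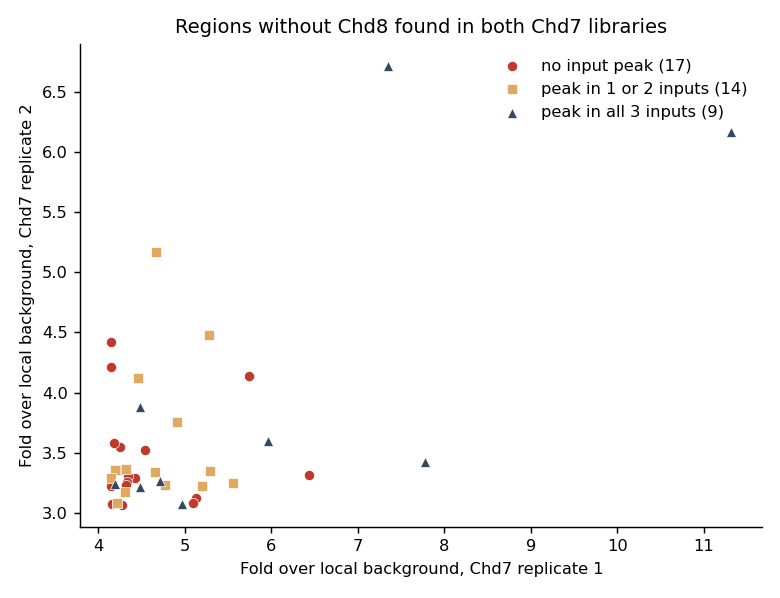
Fold over local background in Chd7 replicate 1 (x axis) and replicate 2 (y axis) of the 40 regions without Chd8 found in both libraries, by the number of inputs with a peak there. The 3 points with the highest mean fold have peaks in all 3 inputs, and the 17 regions under no input reach at most 6.43 in replicate 1 and 4.42 in replicate 2.

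In counts by gene, a peak was at an end if any of its bases, not its midpoint, lay within 1 kb of a boundary. Counted so, 199 of 21887 protein-coding genes (0.909%) had a replicate 1 member at an end, and 574 (2.62%) had a replicate 2 member at an end. Peaks with Chd8 were at the ends of 9.58% of genes in replicate 1 and 14.6% in replicate 2, and peaks of the Chd8 library at the ends of 41.0%. Of the 199 genes, 110 also had a Chd8 peak elsewhere at an end, and of the 574 genes, 215 did. That left 89 genes (44.7%) and 359 genes (62.5%) with Chd7 and no Chd8 called at either end.

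In both libraries 31 genes had a member at an end, which is 15.6% of the replicate 1 genes and 5.40% of the replicate 2 genes. The member peaks of the 2 libraries shared bases at 14 of them, and 11 had neither an input peak under their members nor Chd8 at an end. Those 11 were Arl3, Elmo1, Gm42346, Lypla1, Mapre1, Pdk1, Pkn2, Ripk1, Serpinb6a, Zbtb1 and Zbtb25. Elmo1 encodes a partner of Dock proteins in Rac activation, Mapre1 the microtubule plus-end protein EB1, Arl3 a small GTPase of cilia and Zbtb1 a zinc finger repressor. At Elmo1 the fold was 4.15 in replicate 1 and 4.21 in replicate 2, at Zbtb1 and its neighbour Zbtb25 4.50 and 3.67, and at Pkn2, a protein kinase, 4.36 and 3.43. Arl3 and Gm42346 had their members at opposite ends of the gene. At Elmo1 the members of the 2 libraries shared 2 bp, and at Pkn2, Zbtb1 and Zbtb25 they shared no base.

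Counted at an end or anywhere inside a gene, members of both libraries met in 154 genes, which is 22.4% of the 687 such genes of replicate 1 and 10.8% of the 1426 of replicate 2. These genes were long, with a median of 182623 bp, and 64.3% of them were 100 kb or more, against 11.1% of all protein-coding genes. Beside the regions already named, the highest mean folds were at Gm38510 and C130026I21Rik (5.75 in replicate 1, 3.87 in replicate 2), Fchsd2 (6.14 and 3.46), Gm42346 (5.67 and 3.60), Tgfbr3, a co-receptor for TGF-beta (5.36 and 3.83), and Cntn1, a contactin of axons and oligodendrocyte precursors (4.87 and 4.15). Of the gene lists described below, 15 genes were among the 154, including Tet1, Opcml, Lrrtm4, Tenm4, Cacna1c, Csmd1, Celf4, Fyn, Lhfpl3, Nfia, Cntn6, Csmd3, Grik4 and Sox5.

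The remaining 20 of the 31 genes had Chd8 at an end, an input peak under a member, or both. Among them were Adamts17, Atrnl1, C2cd4d, Ccdc9, Dbn1, Inafm1, Klf11, Knstrn, Mmaa, Mtus1, Nsmce3, Pcbp3, Pign, Prr7, Relch, Sos2, Vcpkmt, Vkorc1l1 and Zdhhc20. At Klf11, a zinc finger transcription factor, the members lay 23 bp and 530 bp from Chd8 in replicates 1 and 2, with folds of 4.15 and 3.34.

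The members of highest fold at gene ends were at that gene's end in 1 library only. In replicate 1 the highest included those at Rab10, a small GTPase of vesicle transport (5.83), at the shared end of Faap100, a Fanconi anaemia core complex subunit, and Nploc4 (5.60), and at Tatdn2 (5.40), Myo18a (5.29), Ripor1 (5.18), Fam3c (5.14), Jakmip2 (5.09) and Get4 (5.09). The Tatdn2 member lay 4 bp from a Chd8 peak. In replicate 2 the highest were at Sstr1, a somatostatin receptor (4.84), Efnb1, the ligand ephrin-B1 (4.73), Vwa5b2 (4.68), Kcnc1, a voltage-gated potassium channel (4.67), Egln3, a prolyl hydroxylase (4.65), Lrfn5, a synaptic adhesion protein (4.56), Avpi1 (4.50), Cdca4 and Gm52009 (4.36), and Icmt (4.34). By its midpoint the Sstr1 member lay elsewhere inside the gene, more than 1 kb from a boundary. Of these replicate 2 genes, Efnb1 and Lrfn5 had no input peak under the member, and their members were 236 bp and 537 bp from Chd8.

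Gene lists of the cell lineage and of other pathways were read at loci, the gene with 10 kb on both sides. A member was at the locus of 903 of all 21887 genes (4.13%) in replicate 1 and of 1953 (8.92%) in replicate 2. Long genes have more room for a peak: of the 2429 genes of 100 kb or more, 15.4% had a member at the locus in replicate 1 and 22.4% in replicate 2, against 1.93% and 6.31% of the 14381 genes under 30 kb. The genes named from here at loci, other than those with a member at an end, were chosen after their values were seen.

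Of 28 genes of oligodendrocyte precursor identity, 5 (17.9%, interval 6.06 to 36.9) had a member at the locus in replicate 1 and 11 (39.3%, interval 21.5 to 59.4) in replicate 2. All 5 of replicate 1 were genes of 100 kb or more (5 of 7 such genes), while 6 of the 16 genes under 30 kb had one in replicate 2 and 0 of 16 in replicate 1. At gene ends the list had Lhfpl3 in replicate 1, with a fold of 4.18, and Sox10 and Olig1 in replicate 2. Olig1, a bHLH factor of the lineage, had a fold of 3.62, 14 bp from a Chd8 peak and under input 3. Sox10, the HMG-box factor of the lineage, had 3.08, 1535 bp from Chd8 and under input 3. At Pdgfra, the receptor for the mitogen PDGF, 2 replicate 2 members lay at the locus, the higher at 3.30 and under no input, 4208 bp from Chd8. Lhfpl3, Sox5 and Fyn had members at the locus in both libraries, at different places in the gene.

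Of 29 genes of myelin and the mature oligodendrocyte, 3 (10.3%, interval 2.19 to 27.4) had a member at the locus in each library. Mbp, myelin basic protein, had one at a gene end in replicate 1, at the lowest fold of that list (4.15) and 17919 bp from Chd8. Mobp, a myelin protein, had one at the locus in replicate 1 at 4.39, and Mal, a proteolipid of myelin, one in replicate 2 at 3.18. Qk, which encodes the RNA-binding protein quaking needed for myelination, was the only gene of the list with a member at the locus in both libraries.

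Synaptic adhesion genes and cadherins had the highest share of the 15 lists in both libraries. Of 40 genes, 12 (30.0%, interval 16.6 to 46.5) had a member at the locus in replicate 1 and 22 (55.0%, interval 38.5 to 70.7) in replicate 2. These genes are long, with a median of 906823 bp against 17169 bp for all genes. Among those of 100 kb or more, 11 of 34 (32.4%, interval 17.4 to 50.5) had one in replicate 1 and 21 of 34 (61.8%, interval 43.6 to 77.8) in replicate 2. Both values were above the 15.4% and 22.4% of all genes in that class, but genes were not matched on length within it. At ends the list had Cntn6, a contactin, in replicate 1 (4.21, 682085 bp from Chd8) and Csmd1 in replicate 2 (3.13, under all 3 inputs). Inside genes, Opcml reached 5.42, Lrrtm4 5.37 and Nlgn1, a neuroligin, 5.20 in replicate 1, and Ctnna3 4.03 in replicate 2.

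Glutamate receptors and ion channels had 7 of 35 genes with a member at the locus in replicate 1 (20%, interval 8.44 to 36.9) and 13 in replicate 2 (37.1%, interval 21.5 to 55.1). Most of these genes are long. Of the 31 of 100 kb or more, 7 had a member in replicate 1 (22.6%, interval 9.59 to 41.1). In replicate 2, 12 of the 31 did (38.7%, interval 21.8 to 57.8). These intervals include the 15.4% and 22.4% of all genes in that class. At gene ends were Grik4, a kainate receptor subunit, and Cacna1c, a calcium channel subunit, in replicate 1, both at the lowest fold (4.15), and Gria1 (3.50), Kcnip4 (3.49), Kcnq3 (3.23) and Grik5 (3.22) in replicate 2. The Gria1 member, at an AMPA receptor gene, lay 505771 bp from any Chd8 peak and under no input. Axon guidance genes had 7 of 36 (19.4%, interval 8.19 to 36.0) and 8 of 36 (22.2%, interval 10.1 to 39.2) in replicates 1 and 2, with Efnb2 (3.88), Nrp2 (3.80) and Plxna4 (3.56) at ends in replicate 2. Of the axon guidance genes 29 were 100 kb or longer, of which 7 had a member in replicate 1 (24.1%) and 5 in replicate 2 (17.2%), the second being below the 22.4% of all such genes.

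Chromatin regulators had 4 of 44 genes with a member at the locus in replicate 1 (9.09%, interval 2.53 to 21.7) and 8 in replicate 2 (18.2%, interval 8.19 to 32.7). Chd7 itself had a replicate 1 member inside the gene, with a fold of 5.00 and 650 bp from a Chd8 peak. Tet3, a paralog of Tet1, had one at 5.34, and Chd3 had 2, the higher at 4.23. In replicate 2 Hdac3, a histone deacetylase, had a member at an end (3.26, under inputs 1 and 3), and Chd2, Chd9, Smarca2, Kmt2d, Kdm6b and Hdac4 had members inside the gene, between 3.08 and 3.84. Autism risk genes had 6 of 50 (12%) and 10 of 50 (20%) in replicates 1 and 2, with intervals of 4.53 to 24.3 and 10.03 to 33.7, and had Cacna1c and Tcf20 (3.11) at ends. Of the 26 autism risk genes of 100 kb or more, 5 had a member in replicate 1 (19.2%, interval 6.55 to 39.4). In replicate 2, 9 of the 26 did (34.6%, interval 17.2 to 55.7). These intervals include the 15.4% and 22.4% of all genes in that class.

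RNA splicing genes had few members. No gene of 41 had a member at the locus in replicate 1 (interval 0 to 8.60%), and 1 had in replicate 2, Snrnp70 (2.44%, interval 0.0617 to 12.9). Both intervals of the members at loci include the shares over all genes, 4.13% and 8.92%. Peaks with Chd8 were counted at gene ends only, which is a narrower place than the locus. They were at the ends of 39.0% of the list in replicate 1 and 48.8% in replicate 2, against 9.58% and 14.6% of all genes. Members were at the end of no gene of the list in either library. The splicing genes are short, with a median of 14157 bp, and 35 of the 41 are under 30 kb, a class in which 1.93% and 6.31% of all genes had a member at the locus. Cell cycle genes had 1 and 3 of 37 (2.70% and 8.11%), with Ccne2, a cyclin of S phase entry, at an end in replicate 2 (3.50). Genes of p53 and apoptosis had 1 and 5 of 30 (3.33% and 16.7%). Aifm1 was at an end in replicate 2 (3.10), and Bbc3, the p53 target Puma, was near the same region in both libraries (4.32 in replicate 1, 3.36 in replicate 2, under input 2). Notch, Wnt and Hedgehog genes had 2 and 9 of 44 (4.55% and 20.5%), with Tcf7 (3.44), Wnt7a (3.15) and Hes1 (3.07) at ends in replicate 2.

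Markers of other brain cells were counted in the same way. Neuron markers had a member at the locus in 1 of 31 genes in replicate 1 and 6 of 31 in replicate 2, with Neurod6 at an end under all 3 inputs (3.34). Astrocyte markers had one in 4 of 20 and 3 of 20, Gfap and Nfia in both libraries. Microglia markers had 0 of 20 and 1 of 20 (Itgam), and endothelial and mural markers 0 of 20 and 1 of 20 (Vtn). Peaks do not measure RNA, so these counts cannot check the identity of the sorted cells, and the part of other cell types in the members was not tested.

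**Figure D5:**
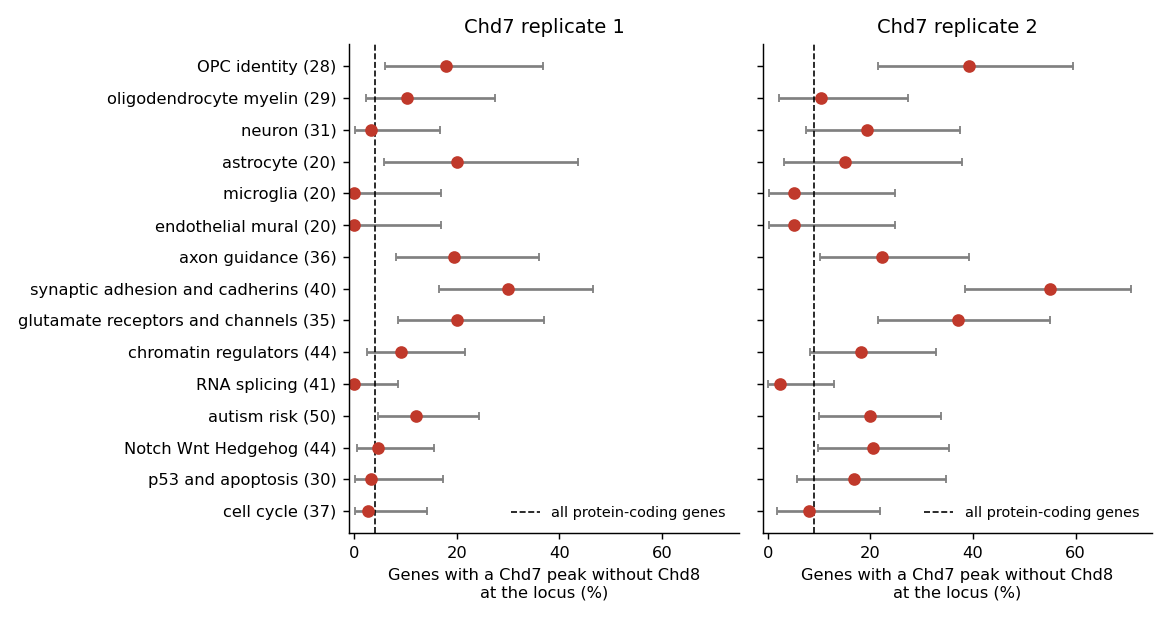
Share of the genes of each list (number of genes in brackets) with a Chd7 peak without Chd8 at the locus (x axis, percent), for replicate 1 on the left and replicate 2 on the right. Points are shares, bars 95% Clopper-Pearson intervals, and the dashed line the share over all protein-coding genes, 4.13% and 8.92%; synaptic adhesion genes lie farthest to the right in both panels.

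Members were spread over the genome, with a few dense places. In replicate 1, 95 members (8.60%) lay within 10 kb of another member, and in replicate 2, 138 (5.86%). The densest windows of 100 kb in replicate 1 adjoined each other on chromosome 1, with 8 members between 85231153 and 85292655 and 8 between 85302580 and 85345179, at C130026I21Rik, Gm38510 and Gm7592. Of each 8, 6 lay under an input peak. Replicate 2 had 4 members in the first of these, 3 under an input peak. The third window in replicate 1, on chromosome 4 between 145434129 and 145450531 at Gm42346, had 6 members, 3 under an input peak.

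The densest window in replicate 2 lay near the start of chromosome 9, between 3005841 and 3038227, with 17 members of fold 3.17 to 10.6. Of these, 16 lay under an input peak, and the window held 5 of the 10 members of highest fold in that library. Chd8 peaks beside them had folds up to 30.0.

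Over the 10 members of highest fold, the input share was higher than over all members. In replicate 1, 5 of 10 lay under an input peak and 4 under all 3, and in replicate 2, 8 of 10 and 7 of 10. Over the 4 fold groups the input share of members differed little. From the lowest to the highest group it was 15.3%, 15.2%, 16.4% and 17.9% in replicate 1. The same shares were 35.9%, 36.7%, 39.6% and 37.9% in replicate 2. The highest member of replicate 1, at chr2:3964499-3964617 and 53032 bp from Frmd4a, had a fold of 16.4 and lay under input 1. In replicate 1, members under no input among the 10 were inside Micu3, a regulator of mitochondrial calcium uptake (6.84), and Jmjd1c, a histone demethylase family member (6.51), near Pde1c (6.43), at the lncRNA Gm31175 (6.34) and 75297 bp from Gm44812 (7.50). In replicate 2 they were inside Pde4d, a cAMP phosphodiesterase (6.11), and Ptprg, a receptor phosphatase (5.78). None of the 10 lay at a gene end in either library.

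On the X chromosome, 9 members of replicate 1 (0.814%) and 68 of replicate 2 (2.89%) were called, against 0.486% and 0.721% of the peaks with Chd8. On Y, 9 members of replicate 1 (0.814%) and 2 of replicate 2 (0.0849%) were called, against 0.195% and 0.206%.

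The base composition of promoters was compared next, over the 21263 windows of protein-coding genes in the RefSeq promoter table. Replicate 1 members touched 119 windows and replicate 2 members 217, against 1671 and 2598 for the peaks with Chd8. Of the windows with members, 20 in replicate 1 and 20 in replicate 2 were also touched by a Chd8 peak. Windows touched by members had a median GC content of 70.0% in replicate 1 and 66.0% in replicate 2, against 62.3% and 63.7% for windows touched by peaks with Chd8 and 56.3% over all windows. The median number of CpG dinucleotides was 32 and 25 in the windows of members, against 24 in both replicates for peaks with Chd8 and 13 over all windows. Promoters with members were thus GC rich, like those touched by peaks with Chd8.

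The windows were searched on both strands for 12 short motifs. The GC box GGGCGG, bound by Sp factors, was in 79.0% of windows with replicate 1 members (interval 70.6 to 85.9) and 78.8% with replicate 2 members (interval 72.8 to 84.0), against 71.9% and 73.0% for peaks with Chd8 and 46.2% of all windows. The ETS motif CCGGAAG was in 6.72% (interval 2.95 to 12.8) and 11.1% (interval 7.22 to 16.0) of the windows with members, against 22.3% and 24.0% for peaks with Chd8 and 11.6% of all windows. The intervals of members and of peaks with Chd8 did not overlap for ETS in either library, and those of members included the share over all windows. The E-box CAGCTG, of the kind that bHLH factors bind, was in 21.8% (interval 14.8 to 30.4) and 18% (interval 13.1 to 23.7), against 13.6% and 13.2% for peaks with Chd8 and 15.6% of all windows. Another E-box, CATCTG, was in 5.04% (interval 1.87 to 10.65) and 10.1% (interval 6.46 to 14.9), against 9.93% and 9.20% for peaks with Chd8 and 14.6% of all windows. For both E-box forms the intervals of members overlapped those of peaks with Chd8 in both replicates. A window holding these letters is not a binding site, and overlapping windows of 1 gene share sequence. Of the promoters printed above, Nav2 and Pdk1 hold CAGCTG, Otub2 holds CATCTG and Ripk1 holds CCGGAAG. Only in Nav2 does the motif lie in the bases under the member peaks of both libraries.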

How the data were processed

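Each of the 8 libraries, grouped by title, had 1 deposited broad peak list in mm10. Per the submitters' processing notes the tools were Bowtie2, SAMtools, Picard and MACS, and their versions, settings and controls are not stated. For each peak the deposited lists hold a score, a fold (a ratio over local background) and −log10 p and −log10 q values by the authors. Folds were not compared between libraries, but the mean of the 2 folds set the order and choice of items found in both lists. That mean mixes 2 scales, since the folds of members start at 4.15 in replicate 1 and at 3.03 in replicate 2. No reads were used, so depth is unknown.

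The labels name the antibodies Anti-Chd7, Anti-Chd8 and rabbit IgG, whereas the extraction notes name the O4 antibody, which was not resolved. Replicate numbers in the track lines of the Chd7 replicate 2 and Chd8 lists differ from the titles and would exchange their inputs 2 and 3. The titles were used.

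Peaks touching a mock (64 in replicate 1, 55 in replicate 2) were left out and the rest split by a 1 bp overlap with Chd8. Genes were 21887 protein-coding genes of RefSeq GRCm38.p6, and promoter windows covered 17492 of them. All 505 entries of 15 gene lists matched by symbol. Intervals are 95% Clopper-Pearson intervals (Python 3.11.15, scipy 1.17.1, pandas 2.3.3), and the overlap code was tested on simulated data. Named were the 10 members of highest fold per list, all 40 regions in both lists, the 10 genes with the highest-fold member at an end per list, up to 4 genes per gene list with one at an end, genes with members in both lists and the 3 densest windows per library. Of the 154 genes with a member at an end or inside in both lists, leading and listed ones are named. Some items that these rules name are not reported here. Members, lists and rules were chosen with earlier results of these data known. Alternatives were another distance from Chd8, input peaks left out, mock-touching peaks kept, limits on q and fold, reciprocal overlap, a 5 kb window and no sex chromosomes.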

Additional observations from a re-analysis of the deposited data

How the results depend on the processing

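In all, 48 values under alternatives were computed, of which 17 stayed within the 1.5-fold or interval bound of the reported value and 31 did not. For replicate 1 and replicate 2, the number of members was 930 and 1477 without those under any input, 10 and 12 above a −log10 q limit of 5, and 156 and 15 at a fold of at least 5. The share recurring was 2.37% and 1.35% without any input, 20% and 16.7% with the q limit and 1.28% and 13.3% with the fold limit set on the peaks of both Chd7 libraries, and 1.90% and 0.849% with a reciprocal overlap of 50%. With the limit on the members alone, against every peak of the other library, an alternative chosen after seeing the data, it was 40% (4 of 10) and 16.7% (2 of 12) for q and 8.97% (14 of 156) and 20% (3 of 15) for fold. The gene-end share was 10.1% and 16.3% at 1 kb or more from Chd8, 12.9% and 12.6% without any input, 0% and 0% at the q limit, 7.05% and 0% at the fold limit, and 28.7% and 36.4% with a 5 kb window, and in replicate 2 18.7% without the matching input. Regions in both libraries numbered 24 without the matching input, 17 without any input and 18 with reciprocal overlap. The share of members at a gene end stayed below that of peaks with Chd8 in each of the 4 fold groups of both libraries. The rule itself bears on this difference at every fold. The planned use of each Chd7 library alone gives no value for regions found in both. No paired analysis was possible because no result comes from a test: each list is 1 library with no counts per sample. The cause of these changes was not tested, beyond the fewer peaks that each limit leaves. Depth is unknown, the lists do not say whether a missing Chd8 peak is absence or low depth, and the Chd8 ChIP had 1 library.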

Other observations

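Members also lay near microRNA genes and non-coding genes. These items were chosen after their values were seen. In replicate 1, 149 members (13.5%) were within 1 kb of a lncRNA gene, against 17.2% of peaks with Chd8, and in replicate 2, 305 (12.9%) were, against 17.2%. For tRNA genes the shares were 0.543% and 0.212% of members in replicates 1 and 2, against 0.462% and 0.490%. For microRNA genes they were 0.633% and 0.424% of members, against 0.486% and 0.928% of peaks with Chd8, so the direction differed between replicates. Replicate 1 members lay over or within 1 kb of the hairpins of 3 microRNAs that are abundant in brain. These were picked from a longer set, which also held Mir760, Mir7654, Mir7662 and Mir6962. MicroRNAs repress messenger RNAs through their seed, bases 2 to 8, shown here in capitals in the mature sequences (RefSeq, GRCm38.p6).
miR-128-3p: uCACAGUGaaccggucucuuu
miR-219a-5p: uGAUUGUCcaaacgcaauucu
miR-9-5p: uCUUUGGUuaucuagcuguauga

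The Mir128-2 hairpin on chromosome 9 (112118636 to 112118711, minus strand), inside Arpp21, lay under a member of replicate 1 with a fold of 4.50 and no input peak, and the nearest Chd8 peak was 89087 bp away. The other copy, Mir128-1, had no Chd7 peak with or without Chd8, no Chd8 peak and no input peak within 1 kb. The member near Mir219a-1 on chromosome 17, a microRNA known for promoting oligodendrocyte differentiation, was 349 bp from the hairpin, had a fold of 4.30, touched peaks of 2 inputs and was 72 bp from a Chd8 peak. That member lay inside the coding gene Ring1 and touched its promoter window, with its middle 184 bp from the Ring1 start. The member near Mir9-2 on chromosome 13 was 544 bp from the hairpin, had a fold of 4.39 with no input peak, and was 49 bp from a Chd8 peak. Replicate 2 had no member within 1 kb of these hairpins, but had a peak with Chd8 within 1 kb of Mir9-2. The 3 seeds differ from each other, and these microRNAs share no family.

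At Qk, 7 replicate 1 members lay on chromosome 17 between 2195 bp and 13374 bp below the lower boundary of the gene (10206471), which for this minus-strand gene is past its 3′ end. Their folds were 4.57, 4.31, 4.28, 4.70, 4.93, 4.35 and 4.59 in the order of position, and none had an input peak. Replicate 2 had no peak over any of them and 1 member inside Qk, with a fold of 3.90. Chd8 peaks lay at 10189265 to 10189394, beyond the members, and at the start of the gene.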
